A study of Homo sapiens with 8 samples.

Results

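The aryl hydrocarbon receptor (AhR), its partner, its repressor and 6 of its classical target genes were followed in nascent RNA from 2 human colorectal cancer cell lines. The 9 members, AHR, ARNT, AHRR, CYP1A1, CYP1A2, CYP1B1, TIPARP, NQO1 and ALDH3A1, were chosen by symbol as known genes of this pathway, out of 18638 gene models counted in each line. They were chosen with their results in the 2 contrasts below already known. Their fold changes are therefore a description of these libraries and give no independent support that the pathway moved.

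AhR is a transcription factor that waits in the cytoplasm, bound to a chaperone complex, until it binds a small ligand such as dioxin, a polycyclic aromatic hydrocarbon or an indole made from tryptophan. It then enters the nucleus, pairs with ARNT and binds short DNA elements that hold the core letters GCGTG. CYP1A1, CYP1A2 and CYP1B1 are cytochrome P450 enzymes that oxidise many AhR ligands, and TIPARP is an ADP-ribosyltransferase that acts on AhR and limits it. AHRR is a repressor that competes for ARNT and is itself induced by AhR, which closes a feedback loop. NQO1 and ALDH3A1 are detoxifying enzymes, a quinone reductase and an aldehyde dehydrogenase, and NQO1 is also a target of the oxidative stress factor NRF2. The gut epithelium meets AhR ligands from diet and from bacteria.

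Nascent RNA was captured by factory-seq, in which RNA held at sites of transcription is released from nuclei by caspases. There were 4 groups of 2 libraries. The DLD-1 groups shared mAID-mClover-POLR2A and Tet-OsTIR1, that is a degron on the largest subunit of RNA polymerase II with a doxycycline-driven TIR1. One group was untreated and the other received indole-3-acetic acid (auxin) at 500 µM for 14 h, after 24 h of doxycycline per the protocol, and nothing states whether controls also received doxycycline. Both HCT116 groups carried TOP2A-mAID, a degron on topoisomerase 2A. One was untreated, and the other also lacked topoisomerase 2B (TOP2B-/-, spelled TO2B-/- in the labels). For the TOP2B-/- group the titles read control, while the treatment field reads auxin for 14 h and the names of its count columns also read auxin. If auxin was given, the protocol has the same 24 h of doxycycline and 500 µM. Genotype, auxin and doxycycline cannot be told apart in this contrast, and the group is named here by genotype. Titles call all cells asynchronous, although a sort for G1 is mentioned where applicable. Nothing says whether the libraries of a group came from separate cultures or clones, so p-values measure only the spread between these libraries.

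Total counts were 62626875 and 36906755 in the DLD-1 controls, 14183633 and 10739622 after auxin, and between 32129400 and 36491540 in HCT116. Read density over 3095 long genes that were silent in the other line gave a background level, which made up 2.25% and 9.05% of reads in the DLD-1 controls and 39.5% and 59.7% after auxin. In HCT116 it was between 0.273% and 3.06%. The TOP2B-/- libraries correlated with a control library at up to r = 0.989 over log2 CPM (reads of a gene per 1000000 reads of its library), above the r = 0.961 between the 2 controls, so the HCT116 groups did not separate on that measure. Of 18 markers of leukocytes, fibroblasts, endothelium and hepatocytes, 14 were called higher in DLD-1 after auxin and 0 lower. Over all genes tested there 32.2% were called higher and 35.0% lower. The summed level of the 18 went from 29.5 and 73.6 CPM to 363 and 370 CPM. After auxin their reads were 0.31 (PTPRC) to 4.80 (PECAM1) times the background. With background subtracted PDGFRB was called lower, and ITGAM, CD14, DCN, PECAM1, VWF, KDR, ALB and CYP3A4 higher. None of the 18 was at 0 reads in any DLD-1 library. In HCT116 0 of 12 tested were called and the sums were 61.0 and 57.4 CPM in controls against 44.0 and 47.2 CPM, with LUM at 0 in both controls and CD3E, COL1A2 and TTR at 0 in control 2. The 12 epithelial markers summed to between 2943 and 7458 CPM in every library, and EPCAM, KRT8, KRT18 and KRT19 had reads in all of them, although KRT20 was at 0 reads in HCT116 control 1. In DLD-1 5 of the 12 were lower after auxin, among them CDX2 (-3.51), CLDN4 (-3.30) and KRT18 (-1.72). CDX1 was higher, but its reads after auxin were 0.47 and 0.88 times the background. With background subtracted 4 were higher and 3 lower, KRT18 and CDX1 not among those called. With libraries scaled by their totals 4 were higher and 5 lower. In HCT116 CDH1 was lower (-0.69) in TOP2B-/- cells, and with background subtracted 5 were lower and 0 higher.

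AhR elements near the start sites of the members that moved in HCT116 are shown first, since the core letters are what the receptor is known to bind. The windows run from 250 bases before to 50 bases after an annotated start, on the gene's own strand, and come from RefSeq on GRCh38.p14. Capitals mark GCGTG or its reverse complement CACGC. The CYP1A1 window is chr15:74725479-74725778 on the minus strand, 1 of 2 AHRR windows is chr5:321464-321763 and 1 of 3 TIPARP windows is chr3:156674340-156674639, both on the plus strand. NQO1, at chr16:69726511-69726810 on the minus strand, is printed as a target that was not called in HCT116.
CYP1A1: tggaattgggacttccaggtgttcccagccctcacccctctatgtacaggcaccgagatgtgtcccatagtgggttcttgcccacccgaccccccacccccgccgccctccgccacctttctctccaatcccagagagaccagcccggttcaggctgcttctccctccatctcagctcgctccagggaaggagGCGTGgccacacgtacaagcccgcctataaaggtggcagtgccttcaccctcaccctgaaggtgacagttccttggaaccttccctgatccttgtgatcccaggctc
AHRR: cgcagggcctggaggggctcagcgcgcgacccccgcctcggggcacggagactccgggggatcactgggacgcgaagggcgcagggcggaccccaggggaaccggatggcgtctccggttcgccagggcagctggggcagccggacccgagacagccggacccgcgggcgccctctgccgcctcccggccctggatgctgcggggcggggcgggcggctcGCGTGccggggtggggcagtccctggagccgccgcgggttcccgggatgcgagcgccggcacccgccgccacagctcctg
TIPARP: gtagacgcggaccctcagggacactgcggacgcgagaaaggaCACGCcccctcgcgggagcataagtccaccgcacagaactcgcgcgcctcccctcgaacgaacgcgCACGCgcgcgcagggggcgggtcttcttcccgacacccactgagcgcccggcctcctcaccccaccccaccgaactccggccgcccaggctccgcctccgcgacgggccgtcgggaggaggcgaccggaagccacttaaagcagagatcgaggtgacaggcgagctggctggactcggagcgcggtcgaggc
NQO1: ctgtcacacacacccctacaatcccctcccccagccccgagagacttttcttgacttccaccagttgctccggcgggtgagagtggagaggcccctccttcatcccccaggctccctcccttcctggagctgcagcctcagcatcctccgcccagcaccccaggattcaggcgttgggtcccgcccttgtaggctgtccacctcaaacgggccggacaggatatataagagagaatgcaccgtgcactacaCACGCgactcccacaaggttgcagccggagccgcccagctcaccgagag

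In the CYP1A1 window 1 core began 57 bases before the start, and in the AHRR window shown 1 began 30 bases before it. Both AHRR windows belong to annotated starts that lie inside the counted AHRR model, downstream of its own start at chr5:304176. The TIPARP window shown held 2 cores, at 208 and 142 bases before the start. The other 2 TIPARP windows held 0 cores, and the other AHRR window held 2. Promoters were matched for 7 of the 9 members, all but CYP1B1 and ALDH3A1, in 10 windows. A core was found in 6 of these windows and in 5 of the 7 genes, the exceptions being ARNT and CYP1A2. Of all 35116 RefSeq windows, 36.5% held at least 1 core, 12.7% held at least 2 and 4.30% held at least 3. The longer form TNGCGTG, which contains the core, was found in 2 of the 10 windows, those of AHRR and NQO1 printed above, and in 5.51% of all windows. Both strands were searched. These are matches of letters, and the share over all windows was not matched for base composition.

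In HCT116 4 of the 8 members tested were called higher in TOP2B-/- cells than in controls (adjusted p under 0.05), and 0 were called lower. They were CYP1A1, CYP1B1, AHRR and TIPARP, that is 2 of the ligand-oxidising enzymes and the 2 feedback genes. The genes for the receptor and its partner, AHR and ARNT, were not called, nor were NQO1 and ALDH3A1. CYP1A2 had too few reads for a test. Among all 15273 genes tested in this contrast 3.41% were called, 1.75% higher and 1.66% lower. Because the members were chosen with this contrast known, nothing is read from the excess over that share. The median log2 fold change was 0.58 over the 8 members and 0.03 over all genes tested.

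**Figure D1:**
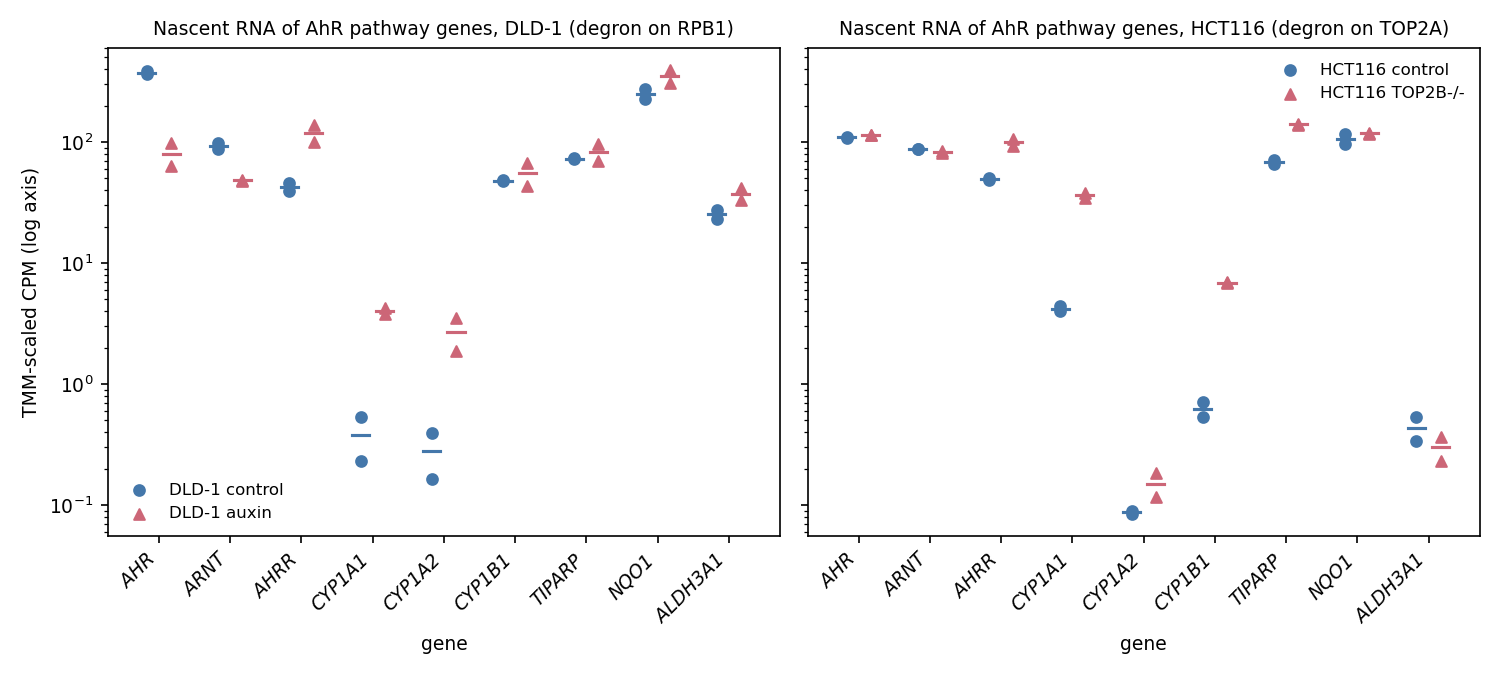
Level of each of the 9 members in CPM scaled by TMM, on a log axis, with 1 point per library and a short line at the mean of each group of 2. CYP1A1, CYP1B1, AHRR and TIPARP stood higher in both HCT116 TOP2B-/- libraries than in either control, while AHR in DLD-1 stood at 97.6 and 62.8 CPM after auxin against 364 and 385 CPM in controls.

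CYP1A1 (NM_000499, chr15:74719542-74725536, GRCh38, minus strand) encodes the P450 most used as a read-out of AhR. Its reads numbered 135 and 156 in the HCT116 controls and 1315 and 1136 in the TOP2B-/- libraries. On the CPM scale, with libraries scaled by TMM, these were 4.01 and 4.40 against 38.0 and 34.7. Both TOP2B-/- libraries were far above both controls. The means were 4.21 ± 0.271 and 36.3 ± 2.37 CPM (SD, n = 2 each), a log2 fold change of 3.11 ± 0.12 (SE) or 8.63-fold, with an adjusted p = 0.018 in edgeR's quasi-likelihood test with Benjamini-Hochberg adjustment over all genes. Its reads were 42.7 and 299 times the background for a gene of its length in controls and 568 and 220 times in TOP2B-/- cells.

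CYP1B1 (NM_000104, chr2:38067603-38076181, minus strand) encodes a P450 that is active outside the liver, among others on oestrogens. It was nearly silent in the HCT116 controls, with 18 and 25 reads or 0.535 and 0.705 CPM. In TOP2B-/- cells it had 239 and 222 reads or 6.91 and 6.77 CPM. The groups did not overlap, and the log2 fold change was 3.46 ± 0.25 (SE), or 10.97-fold (edgeR, adjusted p = 0.025). In control 1 its reads were only 3.98 times the background, so the fold rests on a low base. Among the 521 genes called in HCT116, 8 had a log2 fold change of at least 3, and CYP1B1 and CYP1A1 were the fifth and the eighth of them.

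AHRR (NM_001242412, chr5:304176-438290, plus strand) had 49.98 and 48.5 CPM in controls and 105 and 93.5 CPM in TOP2B-/- cells. The groups did not overlap, and the log2 fold change was 1.01 ± 0.074 (SE; edgeR, adjusted p = 0.025). Its model overlaps PDCD6 on the same strand by 10799 bases, a stretch equal to what the deposited counted length leaves out. TIPARP (NM_015508, chr3:156674416-156706768, plus strand) had 65.4 and 71.0 CPM in controls and 140 CPM in each TOP2B-/- library. Its log2 fold change was 1.03 ± 0.056 (SE; edgeR, adjusted p = 0.025). The feedback genes thus moved by a similar amount, 2.02-fold and 2.05-fold, from a higher base in CPM than the P450 genes. Per kilobase of counted length AHRR stood below CYP1A1 in the HCT116 controls, at 0.399 against 0.702 CPM.

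The receptor and its partner were not called in HCT116. AHR (NM_001621, chr7:17298652-17346151, plus strand) had 108 and 110.0 CPM in the HCT116 controls and 113 and 115.0 CPM in TOP2B-/- cells, a log2 fold change of 0.07 ± 0.039 (SE; edgeR, adjusted p = 0.393). ARNT (NM_001197325, chr1:150809705-150876768, minus strand) had 88.4 and 88.2 CPM against 81.0 and 84.2 CPM, a log2 fold change of -0.10 ± 0.043 (SE; adjusted p = 0.289). In each case the groups did not overlap but the difference was small and was not called. Groups that do not overlap were common, since 55.3% of all genes tested in HCT116 had them and 7 of the 8 tested members did.

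The detoxifying enzymes gave values on either side of 0. NQO1 (NM_001286137, chr16:69709401-69726668, minus strand) had 97.0 and 116 CPM in controls and 120 and 117 CPM in TOP2B-/- cells, a log2 fold change of 0.15 ± 0.098 (SE; edgeR, adjusted p = 0.431). ALDH3A1 (NM_000691, chr17:19737985-19748433, minus strand) had 18 and 12 reads in controls and 8 and 12 in TOP2B-/- cells, at 1.34 to 13.2 times the background, and a log2 fold change of -0.54 ± 0.82 (SE; adjusted p = 0.711). The groups of ALDH3A1 overlapped. CYP1A2 (NM_000761, chr15:74748843-74756600, plus strand), a largely hepatic P450 that lies beside CYP1A1, had 3 and 3 reads in controls and 4 and 6 in TOP2B-/- cells, so no fold is given. A change of CYP1A2 was not detectable at this depth.

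**Figure D2:**
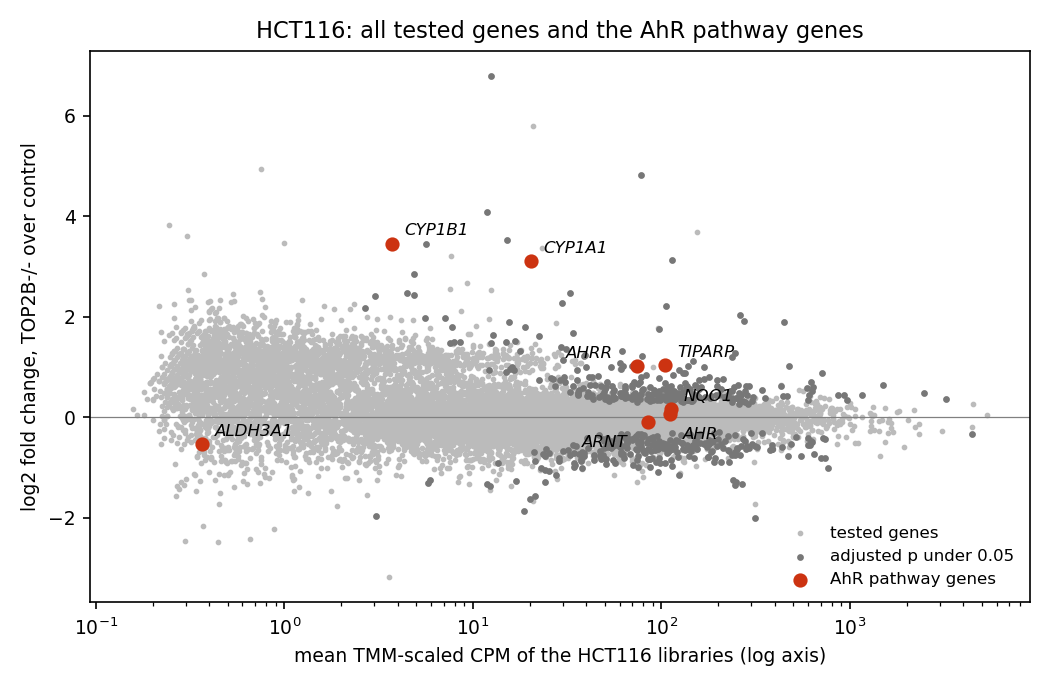
Log2 fold change of every gene tested in HCT116 (TOP2B-/- against control) on the vertical axis against its mean TMM-scaled CPM on a log horizontal axis, with the members tested labelled. CYP1A1 at 3.11 and CYP1B1 at 3.46 lie above most genes of their level, TIPARP and AHRR near 1, and AHR, ARNT and NQO1 near 0.

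The calls in HCT116 depended on the libraries used. The 4 members were called with either control left out, and for control 2, which had the least background, the log2 fold changes were then 3.11 for CYP1A1, 3.60 for CYP1B1, 0.92 for AHRR and 1.03 for TIPARP. With either TOP2B-/- library left out edgeR called 0 genes of all those tested, the members included, while the 4 members kept an unadjusted p under 0.05 and log2 fold changes between 0.88 and 3.47. Subtracting background left all 4 called, at 3.17, 3.70, 1.05 and 1.08 in the same order. With the replicate number as a block edgeR called 0 genes, and the 4 members had an unadjusted p under 0.05 at an adjusted p = 0.175 each. In a fit of all 8 libraries CYP1B1 was the 1 member called.

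As a check of the labels, TOP2B in the TOP2B-/- libraries was at 135 and 132 CPM against 186 and 192 CPM in controls, a log2 fold change of -0.50 (edgeR, adjusted p = 0.027), so reads still came from its locus. TOP2A did not pass the test (-0.09, adjusted p = 0.466). POLR2A in DLD-1, whose protein carries the degron, gave -0.78 (adjusted p = 0.077).

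In DLD-1 after auxin the direction was mixed. Of the 9 members tested AHR and ARNT were lower, AHRR, CYP1A1 and CYP1A2 were higher, and CYP1B1, TIPARP, NQO1 and ALDH3A1 were not called. Among all 17625 genes tested 67.3% were called, 32.2% higher and 35.0% lower, and nothing is read from the 5 of 9 members called. The groups did not overlap for 7 of the 9 members and for 91.0% of all genes. The median log2 fold change was 0.49 over the members and -0.06 over all genes. These are bulk libraries, in which fewer cells and less RNA per cell cannot be told apart, and CPM gives shares of a library and not amounts per cell.

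AHR in DLD-1 had 17705 and 11770 reads in controls and 1682 and 864 after auxin. Its level was 364 and 385 CPM in controls and 97.6 and 62.8 CPM after auxin, with no overlap. The log2 fold change was -2.22 ± 0.27 (SE; edgeR, adjusted p = 0.0054), below that of the median gene. ARNT went from 86.8 and 97.8 CPM to 48.1 and 48.8 CPM, a log2 fold change of -0.93 ± 0.16 (SE; adjusted p = 0.012). AHR reads were 302 and 84.8 times the background in controls and 7.22 and 3.24 times after auxin, and ARNT reads fell to 2.52 and 1.78 times.

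AHRR rose in DLD-1 from 45.9 and 39.6 CPM to 139 and 99.6 CPM, a log2 fold change of 1.48 ± 0.23 (SE; edgeR, adjusted p = 0.0093). CYP1A1 had 26 and 7 reads in controls and 65 and 58 after auxin, which is 0.535 and 0.229 CPM against 3.77 and 4.22 CPM and a log2 fold change of 3.34 ± 0.60 (SE; adjusted p = 0.013). CYP1A2 had 8 and 12 reads against 60 and 26, a log2 fold change of 3.29 ± 0.71 (SE; adjusted p = 0.020). CYP1A1 and CYP1A2 passed the count filter through the auxin libraries, where they were higher, so they could hardly have been called lower. Their calls are a description and give no support for a rise. AHRR, CYP1A1 and CYP1A2 were close to the background after auxin. CYP1A1 reads were 2.21 and 1.72 times the background for its length, those of CYP1A2 1.58 and 0.60 times and those of AHRR 3.96 and 1.98 times. In controls they were 3.52 and 0.40 times for CYP1A1, 0.84 and 0.53 times for CYP1A2 and 14.7 and 3.35 times for AHRR. The background share of the libraries rose over the same contrast, and markers of other cell types rose with it. With background subtracted AHRR was called at 2.38, CYP1A1 gave 4.59 with an adjusted p = 0.085, and CYP1A2 had too few reads left to test.

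**Figure D3:**
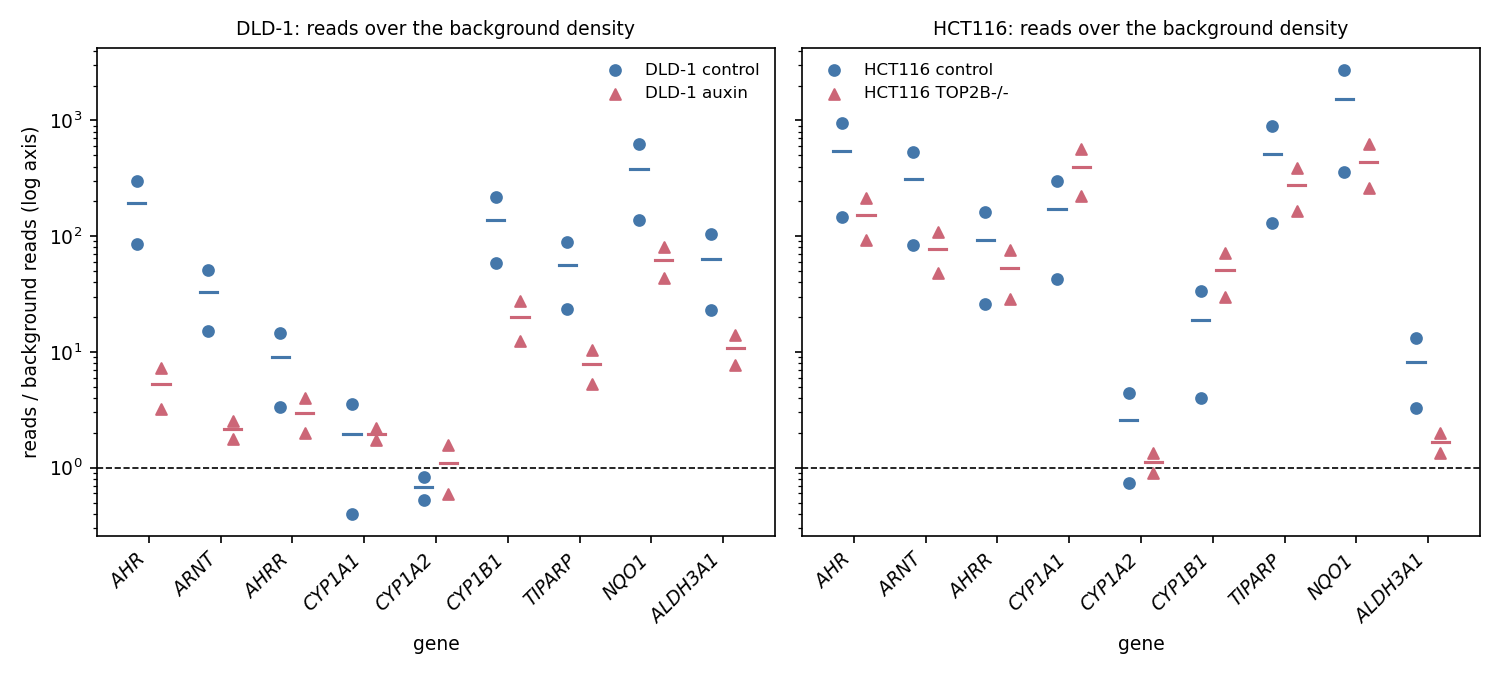
Reads of each member divided by the background expected for its counted length, per library, on a log axis where 1 means no more than background. In the DLD-1 auxin libraries CYP1A1, CYP1A2, ARNT and AHRR lie between 0.60 and 3.96, whereas NQO1 lies at 80.2 and 43.7.

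The members that were not called in DLD-1 stood well above background. CYP1B1 had 47.7 and 48.2 CPM in controls and 67.2 and 43.2 CPM after auxin, with overlap and a log2 fold change of 0.20 ± 0.26 (SE; edgeR, adjusted p = 0.50). TIPARP had 73.5 and 72.2 CPM against 95.7 and 69.7 CPM, also overlapping, at 0.18 ± 0.21 (SE; adjusted p = 0.46). NQO1 had 273 and 226 CPM against 394 and 308 CPM, at 0.49 ± 0.21 (SE; adjusted p = 0.093), and ALDH3A1 had 27.6 and 23.1 CPM against 41.6 and 33.1 CPM, at 0.56 ± 0.22 (SE; adjusted p = 0.077). These calls depended on the settings. With TMM kept, a replicate block called NQO1 and ALDH3A1 higher, the fit of all 8 libraries called NQO1, and a filter at a mean CPM of at least 5 called TIPARP, NQO1 and ALDH3A1. DESeq2 also called NQO1 (0.58, adjusted p = 0.025) and ALDH3A1 (0.65, adjusted p = 0.027) higher. With library totals in place of TMM, which moved the median of all genes to 0.57, all 4 were called higher and ARNT, at -0.29 (adjusted p = 0.182), was no longer called. With background subtracted they were also called higher, at 1.43 for CYP1B1 and 1.31 for TIPARP. ARNT was then at -0.49 and was not called (edgeR, adjusted p = 0.051). AHR was called lower under each of these settings. It fell by less with library totals (-1.60) and with background subtracted (-1.28), and gave -2.26 with the replicate block.

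The calls in DLD-1 also rested on both auxin libraries. Without auxin replicate 1 AHR was the 1 member called and the calls over all genes went from 11855 to 2393. The log2 fold changes of the others were then -0.82 for ARNT, 1.32 for AHRR (edgeR, adjusted p = 0.052), 3.52 for CYP1A1 and 2.87 for CYP1A2. Without auxin replicate 2 AHR and AHRR were called, with 3165 calls over all genes. CYP1B1 gave -0.05 without auxin replicate 1, so its direction was not fixed by these data.

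The difference between the lines, the DLD-1 log2 fold change less that in HCT116, was tested in a fit of all 8 libraries for all 9 members. It passed for 3 of them and for 36.6% of all 17800 genes, so the count was near the share over all genes. It was -2.07 ± 0.27 (SE; edgeR, adjusted p = 0.0031) for AHR, -0.60 ± 0.16 (adjusted p = 0.027) for ARNT and -3.04 ± 0.34 (adjusted p = 0.0023) for CYP1B1. The ARNT call was lost with library totals, with a mean CPM of at least 5, with the replicate block and when any 1 auxin or HCT116 library was left out. CYP1B1 was 10.97-fold higher in TOP2B-/- HCT116 and not called in DLD-1. For CYP1A1 the difference was 0.40 (adjusted p = 0.570), and for AHRR it was 0.68 (adjusted p = 0.123). CYP1A1 was called higher in both lines, but in DLD-1 it was near the background and was not called with background subtracted. TIPARP missed the threshold at -0.63 (adjusted p = 0.079), so its response is not shown to differ. Cell line, degron target and perturbation change together in this test and cannot be told apart.

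**Figure D4:**
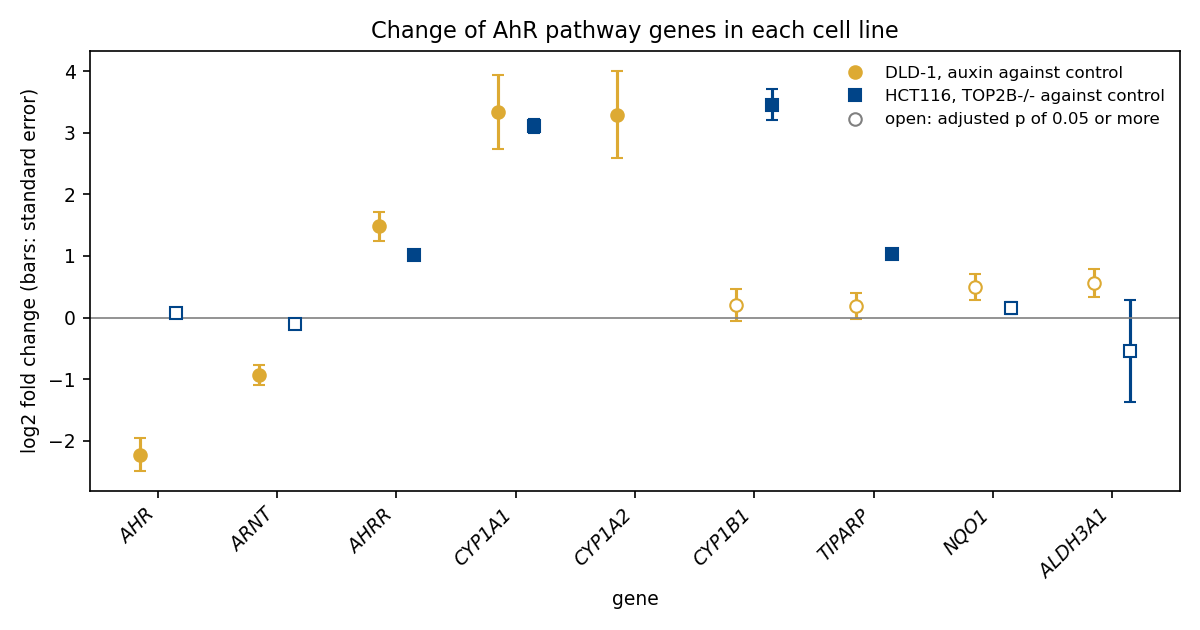
Log2 fold change of each member, with its SE as error bars, in DLD-1 (auxin against control) and in HCT116 (TOP2B-/- against control). CYP1A1 and AHRR were called higher in both lines, AHR and ARNT were called lower in DLD-1, and CYP1B1 and TIPARP were called higher in HCT116. In DLD-1 CYP1A1 reads after auxin were 2.21 and 1.72 times the background, and CYP1A1 was not called there with background subtracted.

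The resting levels of the pathway were not alike in the 2 lines. They are given as RPKM, the CPM divided by the counted length in kilobases, so that genes of unlike length can be set side by side. TMM scaling was done within each line, so the 2 lines are not on a common scale. Its factors were 0.776 and 0.828 in the DLD-1 controls and 1.01 and 0.972 in the HCT116 controls. In the DLD-1 controls NQO1 led at 14.5 RPKM, followed by AHR at 7.89 and CYP1B1 at 5.59. ALDH3A1 at 2.43 and TIPARP at 2.25 came next and overlapped between libraries. ARNT stood at 1.38 and AHRR at 0.347, and CYP1A1 at 0.0637 overlapped with CYP1A2 at 0.0359. In the HCT116 controls the order was NQO1 at 6.16, AHR at 2.29, TIPARP at 2.11, ARNT at 1.32, CYP1A1 at 0.702 and AHRR at 0.399, with CYP1B1 at 0.0723, ALDH3A1 at 0.0418 and CYP1A2 at 0.0112. No neighbours in that order overlapped. The most uneven members between the lines were CYP1B1 and ALDH3A1, the third and the fourth in DLD-1 and both under 0.1 RPKM in HCT116. The lines were counted in separate tables, and the labels used here do not say whether they were prepared together. These levels are therefore set side by side with no test.

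In TOP2B-/- HCT116 CYP1A1 moved from the fifth to the second place at 6.06 RPKM, next to NQO1 at 6.85, and TIPARP at 4.32 passed AHR at 2.40. AHRR at 0.806 and CYP1B1 at 0.798 overlapped. After auxin in DLD-1 NQO1 at 20.3 RPKM still led, followed by CYP1B1 at 6.44, ALDH3A1 at 3.57 and TIPARP at 2.56, and AHR at 1.69 went from the second to the fifth place. No neighbours overlapped in that group. RPKM was not corrected for background, however. After auxin the reads of AHRR, ARNT, CYP1A1 and CYP1A2 were 0.60 to 3.96 times the background, so no order of expression is read from their places.

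Genes around the receptor were examined through 4 lists. Over all genes tested in HCT116 1.75% were called higher and 1.66% lower. Of 11 genes of the AhR chaperone complex and its coactivators 1 was lower and 0 were higher in TOP2B-/- HCT116. That gene was NCOA3, a coactivator, at 230 CPM in controls and 170 CPM in TOP2B-/- cells, or -0.44 (edgeR, adjusted p = 0.028). The list's median was -0.01, and with background subtracted 2 were higher and 2 lower in HCT116. In DLD-1, where 67.3% of all genes were called, 6 were lower and 1 was higher, with a median of -0.64. With library totals 3 were lower and 2 higher, with a median of -0.01, and with background subtracted 5 were lower and 5 higher. The acetyltransferases CREBBP (-2.44) and EP300 (-2.03) and the coactivator NCOA2 (-1.72) fell most, and HSP90AA1, the chaperone that holds AhR in the cytoplasm, was higher at 0.80.

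Of 16 other genes reported as inducible by AhR 14 were in the tables, and 2 of the 11 tested were higher in TOP2B-/- HCT116 with 0 lower and a median of 0.26. These were EREG, an EGF receptor ligand, from 314 to 637 CPM (log2 fold change 1.02, adjusted p = 0.025), and ALDH1A3, a retinaldehyde dehydrogenase, from 471 to 709 CPM (0.59, adjusted p = 0.044). The EREG change was of the size seen for AHRR and TIPARP. With background subtracted 5 of 10 tested were higher and 1 lower in HCT116. In DLD-1 the list split, with 6 higher, 5 lower and 3 not called, and EREG was lower at -1.31. STC2 (2.997), PTGS2 (2.67) and ABCG2 (2.57) were highest, but after auxin their reads were 0.639 to 1.31 times the background. With background subtracted 9 of the list were tested, 2 were higher and 4 lower, the median was -0.54, and EREG was not called. NFE2L2, which encodes NRF2, was lower at -2.58, HES1 at -2.26 and the amino acid carrier SLC7A5 at -2.19.

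NRF2 targets were taken as a neighbour of the NQO1 arm. In HCT116 3 of 12 were higher and 0 lower, with a median of 0.04. They were SLC7A11, the cystine carrier, at 119 CPM against 200 CPM (0.75, adjusted p = 0.025), and the subunits of glutamate-cysteine ligase, GCLM (0.48, adjusted p = 0.036) and GCLC (0.47, adjusted p = 0.027). The largest change went the other way, HMOX1 from 49.2 to 27.9 CPM, and was not called (-0.82, edgeR, adjusted p = 0.056). With background subtracted 5 were higher and 1, HMOX1, was lower in HCT116. In DLD-1 7 of 12 were lower, among them GCLC (-2.24), ME1 (-2.21) and SLC7A11 (-1.96), and 1 was higher, ABCC2 (1.10), with a median of -1.12. With library totals 4 were lower and 1 higher, and with background subtracted 6 were lower and 3 higher, ABCC2 not among them.

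Enzymes of the tryptophan and kynurenine routes, only some of which make endogenous AhR ligands, gave 0 calls among 11 tested in HCT116, with a median of 0.15. With background subtracted 1 of 8 tested, CCBL1, was lower there. In DLD-1 6 of 13 were higher and 3 lower. The higher ones were led by HAAO (2.75), IDO2 (2.50) and KMO (2.42), whose reads after auxin were 0.946 to 1.18 times the background. AADAT (-1.31), CCBL2 (-1.12) and AFMID (-1.12) were lower. With background subtracted the DLD-1 list held 2 higher and 5 lower genes, and HAAO, IDO2 and KMO were not among those called. With library totals 7 were higher and 0 lower.

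**Figure D5:**
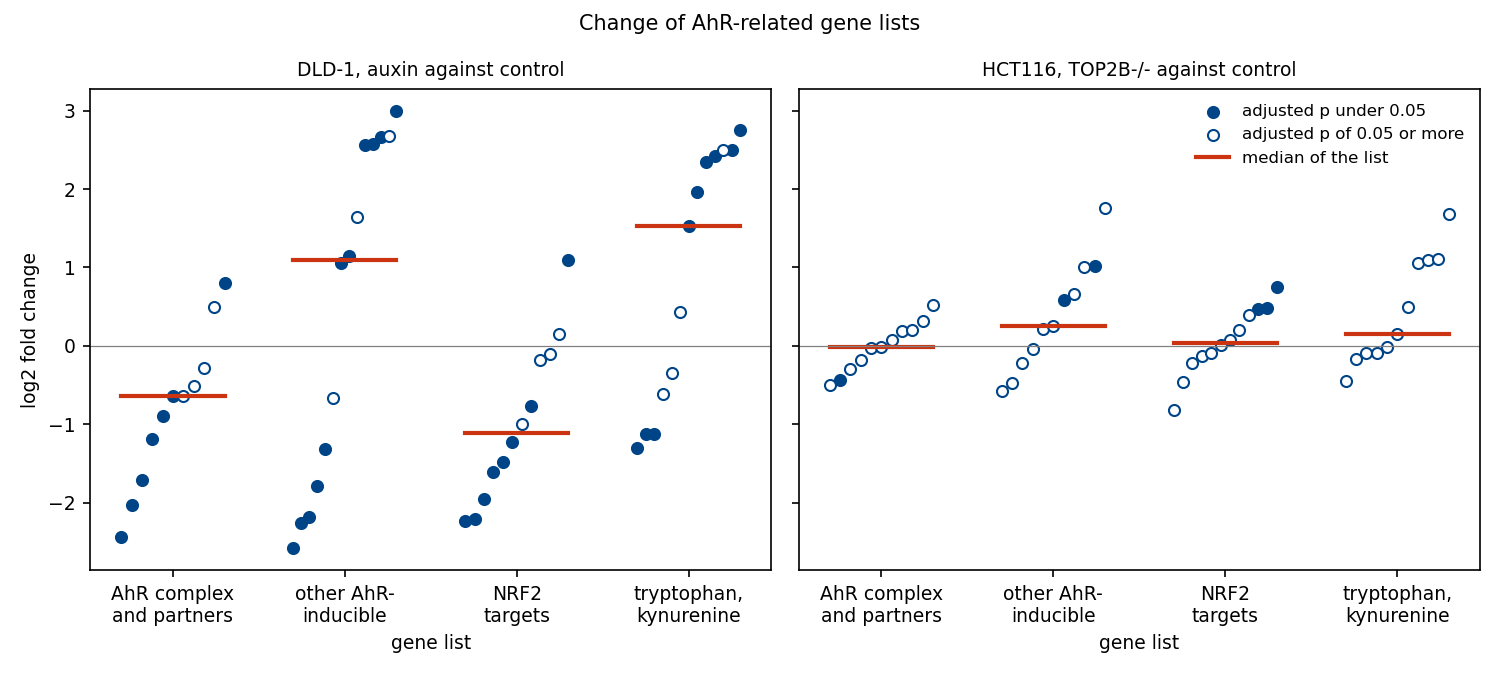
Log2 fold change of every tested gene of the 4 lists in DLD-1 and HCT116, with filled points for called genes and a line at the median of each list. In HCT116 all genes lie between -0.82 and 1.76 and the called ones number 1, 2, 3 and 0 by list, while in DLD-1 each list holds called genes on both sides of 0.

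The genes whose profile was most like that of CYP1A1 over the 8 libraries, each centred on its line, were MCOLN2 (Pearson r = 0.964), AHRR (0.962) and ZNF648 (0.960), out of 15205 genes. AHRR was the second in that order. For AHR they were TIA1, FNTA and MBD4, each with r of 0.999 or more, and these fell in DLD-1 with log2 fold changes of -1.99, -1.89 and -1.79. These correlations are a description over libraries that share groups, scaling and the gap in background between DLD-1 groups.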

How the data were processed

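The authors deposited raw read counts over the span of each RefSeq gene model, introns included, as 1 table per cell line. STAR, DESeq2 and hg38 are named in the submitters' processing notes. Software versions, strand use and counting settings were not given in the sources used here. The authors' tables of changed genes, with log2 fold changes, p-values and normalized values, were not used. No design was taken from the accompanying paper, which concerns other work.

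Counts were tested with edgeR 4.0.16 (R 4.3.3, limma 3.58.1), by filterByExpr, TMM and a two-sided quasi-likelihood test on the 4 libraries of each line (2 residual degrees of freedom), or on all 8 for the difference between lines. P-values were adjusted by Benjamini-Hochberg over all genes tested at 0.05. CPM and RPKM were computed from TMM-scaled library sizes and counted length. Background was the read density of the 20% of genes of at least 5000 bp with the least density in the other line. CYP1A1 was itself in the set used for HCT116, and CYP1A2 in both sets. Counts carry no molecular identifiers. DESeq2 1.42.0, other scalings and filters, a replicate block and omitted libraries were alternatives. A local dispersion trend was used where DESeq2 chose it for HCT116.

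Same-numbered libraries deviated together in DLD-1 (r = 0.60) but not in HCT116 (r = -0.74). Members, lists and tests were chosen with earlier results of these data known. All 9 members are named, with at most 3 called genes per list, direction and line, and the 3 genes most like AHR and CYP1A1.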

Additional observations from a re-analysis of the deposited data

Results flagged for a closer look

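In 3 members the change in DLD-1 and the change in HCT116 differed by edgeR's test of the difference itself, as they did for 36.6% of all genes. The values are the DLD-1 log2 fold change less that of HCT116. For AHR the difference was -2.07, from -2.22 in DLD-1 and 0.07 in HCT116. For ARNT it was -0.60, from -0.93 and -0.10, a call lost with library totals, a mean CPM of at least 5, the replicate block and 6 of the 8 fits that left out 1 library. For CYP1B1 it was -3.04, from 0.20 and 3.46. The DLD-1 contrast is auxin against control and the HCT116 contrast TOP2B-/- against control, so cell line and perturbation cannot be told apart.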

How the results depend on the processing

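In DLD-1 5 members were called. The count was 8 with library totals, and it ranged from 1 to 5 when each library was left out in turn, 1 without auxin replicate 1 and 2 without auxin replicate 2. It was between 5 and 7 in the other settings. CYP1B1, not called in DLD-1, changed sign to -0.0517 without auxin replicate 1, and its values with 1 library left out ran from -0.0517 to 0.485. In HCT116 4 members were called with DESeq2, library totals, no count filter and background subtraction, and 3 with a mean CPM of at least 5, a filter that left CYP1B1 untested. The count was 1 with all 8 libraries in one fit (CYP1B1) and ranged from 0 to 4 with each library left out, 0 without TOP2B-/- replicate 1 or without TOP2B-/- replicate 2. With the replicate block it was 0 in HCT116, where edgeR then called 0 genes and 4 members had an unadjusted p under 0.05, at adjusted p of 0.175 each, and 7 in DLD-1. A crossed pairing in HCT116, chosen after seeing the data, called 4 members and 1808 genes. Over all settings that tested the gene the HCT116 log2 fold changes ran from 3.001 to 3.17 for CYP1A1, 3.27 to 3.70 for CYP1B1, 0.88 to 1.09 for AHRR and 0.97 to 1.08 for TIPARP. For the difference between lines 3 members were called, 6 with DESeq2, 5 with library totals, 5 with a mean CPM of at least 5, 6 with background subtracted, 4 with the replicate block and 2 to 6 with 1 library left out, 6 without DLD-1 control replicate 1 and 5 without DLD-1 control replicate 2. AHR and CYP1B1 were among those called in every one of these settings. Of all genes DESeq2 called 3295 in HCT116 against 521 by edgeR, and 2371 were called with background subtracted. The cause of these changes was not tested.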
